A study of Mus musculus with 4 samples.

Results

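Droplet barcodes of mouse small-intestinal crypt libraries in which mitochondrial genes held over 20% and up to 60% of the UMIs are described here. A UMI is a molecular tag that counts 1 captured RNA molecule. Barcodes entered with at least 1000 UMIs, and the share was the sum over the 13 genes whose symbol begins with mt-, divided by all UMIs of the barcode. The rule took 1680 of the 16565 deposited barcodes, 695 in allogeneic library 1, 315 in allogeneic library 2, 360 in syngeneic library 1 and 310 in syngeneic library 2. They are called high-share barcodes and are set against 12432 low-share barcodes, which had at least 1000 UMIs and a share of at most 20%. A further 154 barcodes lay above 60%, and 2299 had fewer than 1000 UMIs. The members were chosen by their measured mitochondrial share and UMI total, so mitochondrial levels and UMI totals are given as descriptions only. Every gene level below is in CPM, the gene's UMIs over all non-mitochondrial UMIs of the summed barcodes, times 1000000. Values from sums cannot tell fewer cells of a type from less RNA per cell.

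The mitochondrial genome carries protein-coding genes for subunits of the respiratory chain and of ATP synthase, and their RNAs are made and kept inside the organelle. All other mitochondrial proteins, among them the subunits of mitochondrial ribosomes and the import machinery, are encoded in the nucleus and made in the cytosol. A droplet with a high mitochondrial share can hold a cell rich in mitochondria or a cell that has lost cytosolic RNA through a broken membrane, and such barcodes are commonly discarded before analysis. Which of these a barcode held was not tested here.

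The tested libraries came from C57BL/6 mice given BALB/c marrow, labelled as mice with graft-versus-host disease (allogeneic), and the controls from C57BL/6 mice given C57BL/6 marrow (syngeneic). All recipients were lethally irradiated before transplantation and were sampled 7 days after it, so irradiation is shared by both groups and no unirradiated mice are compared. Mice were female and 8 to 12 weeks old. Each library pooled 3 to 4 mice, which leaves n = 2 libraries per group and does not separate single animals. The prefix "KO" of every library title has no explanation in the labels. Crypts were freed with EDTA (10 mM, 40 minutes, 4 °C) and made into single cells with TrypLE and DNase I (20 minutes, 37 °C), steps that all libraries share. Values per library run in the order allogeneic 1, allogeneic 2, syngeneic 1 and syngeneic 2.

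The deposited libraries held 16755124, 26677842, 18262459 and 14961466 UMIs. Non-mitochondrial UMIs summed to 1360397, 448256, 906428 and 714605 over high-share barcodes, against 13071378, 23742820, 15306378 and 12537936 over low-share barcodes, so high-share levels are the less precise ones. Of the 14112 barcodes in the comparison, 38 carried a barcode sequence that also occurred in another library, and 80 (0.567%) were called doublets, 5 of them high-share. Libraries were not alike in makeup. In allogeneic library 1, 428 of the 695 high-share barcodes fell in 1 cluster, and the labels name no batch.

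The high-share barcodes were small as well as rich in mitochondrial RNA. Their median mitochondrial share was 27.7, 25.6, 27.2 and 26.7%, against 8.49, 5.81, 7.59 and 7.41% in low-share barcodes. Median mitochondrial UMIs were 617, 436, 908 and 749.5 per high-share barcode, against 462.5, 234, 346 and 319 per low-share barcode. Median non-mitochondrial UMIs were 1442, 1081, 2244.5 and 2008.5 per high-share barcode, against 4630, 3644, 4124 and 3841 per low-share barcode. Mitochondrial counts were thus higher and other counts lower in every library. Median genes detected were 796, 588, 1063.5 and 918.5 in high-share barcodes, against 1733, 1328, 1598 and 1469.5 in low-share barcodes. With each barcode thinned to 400 UMIs the medians were 286, 263, 279 and 269 genes in high-share barcodes, against 300, 284, 294 and 286 genes in low-share barcodes. Of the 2 marker genes of the rule, mt-Co1, a catalytic subunit of cytochrome c oxidase, had a UMI in 100% of high-share and 99.7% of low-share barcodes, and mt-Nd1, a subunit of complex I, in 99.9% and 98.1%.

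The limit of 20% cut a continuum. Between 20% and 22% lay 316 barcodes and between 18% and 20% lay 376. Enterocyte-like barcodes, defined below, made up 61.1% just above the limit and 64.4% just below it. The summed level of 14 enterocyte marker genes was 72514 CPM just above and 73017 CPM just below. Barcodes on either side of the limit were close in these pooled measures but not in every one. In allogeneic library 2 the 4-gene list of Gm42418, Gm26917, AY036118 and Lars2, described below, stood at 4048 CPM just above the limit and 2674 CPM just below it, and genes for cytosolic ribosomal proteins stood at 55257 CPM just above and 71112 CPM just below. Allogeneic library 1 had the same directions, but the syngeneic libraries did not share them. The 4-gene list stood at 3432 CPM just above and 3907 CPM just below in syngeneic library 1, and at 4819 and 4035 CPM in syngeneic library 2. The ribosomal genes stood at 166771 CPM just above and 161839 CPM just below in syngeneic library 1, and at 131959 and 108437 CPM in syngeneic library 2.

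Allogeneic libraries did not hold a larger share of high-share barcodes than syngeneic ones beyond their spread. High-share barcodes were 25% of allogeneic library 1 (95% interval 23.4 to 26.7%, exact binomial) and 5.96% of allogeneic library 2 (5.34 to 6.64%), against 11.1% (10.0 to 12.2%) and 11% (9.91 to 12.3%) of the syngeneic libraries. The intervals cover counting error only. One allogeneic library lay above both syngeneic libraries and the other below both, and the means were 15.5 ± 13.5% for allogeneic and 11.06 ± 0.0230% for syngeneic libraries (SD, n = 2 each). The difference of 4.44 percentage points gave p = 1 in an exact two-sided permutation test, whose smallest possible p in this design is 0.33. Without allogeneic library 1 the difference was −5.10 points, so its direction rests on that library.

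Most high-share barcodes were enterocyte-like. Enterocytes are the absorptive cells of the intestine, and barcodes were assigned to classes by clustering all 14112 barcodes on non-mitochondrial genes and naming each cluster from marker lists. Enterocyte-like barcodes were 72.1, 84.1, 61.4 and 71.9% of high-share barcodes, against 21, 49.4, 24.7 and 30.6% of low-share barcodes. The difference was 41.0 ± 7.29 percentage points (SD, n = 4 libraries) and was positive in 4 of 4 libraries, with p = 0.13 in an exact two-sided sign-flip test over 4 pairs, the smallest p that 4 pairs allow. In all, 1210 of the 1680 high-share barcodes were enterocyte-like. The others were 100 stem-like, 95 goblet-like, 90 cycling progenitor-like, 41 T or NK-like, 27 Paneth-like, 14 enteroendocrine-like, 14 tuft-like and 89 in clusters without a name.

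Secretory and proliferating classes held smaller shares of high-share than of low-share barcodes. Shares over all classes add to the whole, so a larger enterocyte-like share leaves less for the other classes together. Whether a given class fell beyond that was not tested. Pooled over libraries, cycling progenitor-like, stem-like and goblet-like barcodes numbered 90, 100 and 95 among high-share barcodes, against 1125, 1154 and 2315 among low-share ones. Goblet-like barcodes, which make mucus, were 5.61, 3.81, 6.39 and 6.77% of high-share barcodes, against 19.3, 18.4, 18.2 and 19.0% of low-share barcodes. Paneth-like barcodes, from the antimicrobial cells at the crypt base, were 1.58, 0, 3.33 and 1.29% of high-share barcodes, against 8.99, 3.06, 12.5 and 13.7% of low-share barcodes. Cycling progenitor-like barcodes were 3.88, 0, 8.61 and 10.3% of high-share barcodes, against 8.56, 1.23, 16.4 and 16.5% of low-share barcodes. These 3 classes were lower in 4 of 4 libraries (exact two-sided sign-flip p = 0.13 each, not adjusted over the 9 classes compared), and a count of 0 of 315 allows a share of up to 0.952%. Enteroendocrine-like, tuft-like and unnamed barcodes were also lower in 4 of 4 libraries. Stem-like barcodes were lower in 3 of 4 libraries, at 3.45, 2.54, 13.3 and 6.45% of high-share barcodes, against 7.02, 1.69, 20.4 and 13.5% of low-share barcodes. The cycling progenitor-like class did not hold all barcodes with cycling markers. With barcodes thinned to equal depth, such markers were found in 37.3, 28.7, 36.1 and 29.4% of low-share barcodes. In high-share barcodes they were found in 13.4, 8.25, 16.9 and 15.5%. Class shares such as 0 and 1.23% in allogeneic library 2 are therefore not shares of all cycling cells. Which classes held the other barcodes with these markers was not tested.

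**Figure D1:**
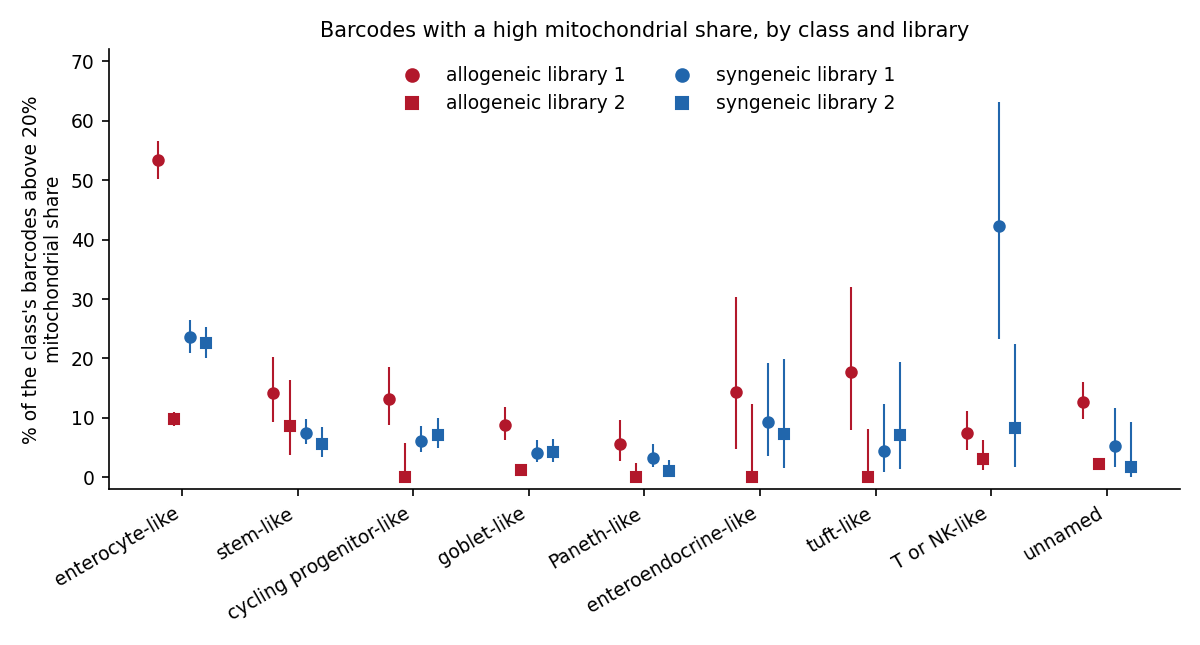
Share of each class that lay above 20% mitochondrial UMIs (y axis, percent of the class's barcodes), by library, with exact 95% binomial intervals. Enterocyte-like barcodes reach 53.4% in allogeneic library 1 and 9.75% in allogeneic library 2, against 23.7% and 22.6% in the syngeneic libraries; of 26 T or NK-like barcodes in syngeneic library 1, 42.3% were high-share.

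The share of the enterocyte-like class that was high-share followed the libraries rather than the groups: 53.4 and 9.75% in allogeneic libraries, against 23.7 and 22.6% in syngeneic libraries. The clusters behind it also differed. In allogeneic library 1, 428 of 501 high-share enterocyte-like barcodes fell in a cluster led by Slc6a19 and Anpep. In allogeneic library 2, 106 of 265 fell in a cluster led by Rbp2 and Pck1, 67 in one led by Ly6d and Saa1 and 56 in one led by Upp1. In the syngeneic libraries 108 of 221 and 103 of 223 fell in a cluster led by Fabp6, and 97 and 89 in one led by Plb1 and Lct.

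Markers counted without any class gave the same picture. With each barcode thinned to 400 UMIs, at least 1 UMI of the 14 enterocyte markers was found in 77.8, 92.1, 74.4 and 82.3% of high-share barcodes, against 31.3, 60.3, 45.6 and 50.2% of low-share barcodes. In T or NK-like barcodes at the same depth, which should lack these genes, the shares were 13.0, 28.1, 42.3 and 27.8%. Without thinning, the shares were 87.6, 95.2, 89.4 and 94.5% of high-share barcodes and 74.1, 87.9, 89.2 and 91.0% of low-share barcodes. Enterocyte markers were therefore above this background in high-share barcodes of every library at equal depth. The 8 goblet markers were found in 16.4, 15.6, 26.1 and 21% of high-share barcodes, against 34.6, 28.5, 38.4 and 40.1% of low-share barcodes and 5.93, 5.70, 15.4 and 2.78% of T or NK-like barcodes. The 9 Paneth markers were found in 19.7, 11.4, 29.2 and 24.2% of high-share barcodes, against 40.2, 24.6, 40.1 and 37.2% of low-share barcodes and 9.63, 8.33, 34.6 and 13.9% of T or NK-like barcodes. In syngeneic library 1 the Paneth share of high-share barcodes was under that background. Each of these 3 differences had the same sign in 4 of 4 libraries, with an exact two-sided sign-flip p of 0.13 and 0.25 after Benjamini-Hochberg adjustment over 12 marker lists.

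Gene levels were compared between high-share and low-share barcodes of the same library on summed counts, with edgeR's quasi-likelihood test, library as a block and Benjamini-Hochberg adjustment at 0.05. Of 11204 genes tested, 2324 were higher (20.7%) and 2206 lower (19.7%) in high-share barcodes, with a median log2 fold change of −0.09 over all genes. Each list below is read against those 2 shares. The contrast mixes what differs within a class with which classes are present. When enterocyte-like, goblet-like and stem-like barcodes were given equal weight in every sum, 80 genes were called, 62 higher and 18 lower. These equal-weight sums rest on few barcodes, with as few as 12 goblet-like and 8 stem-like high-share barcodes in a library (allogeneic 2). Without allogeneic library 1 the count of calls was 2972, against 4530 with all 4 libraries.

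Enterocyte genes led the genes that were higher. All 14 enterocyte markers rose, with a median log2 fold change of 2.16. Apoa4, an apolipoprotein of dietary fat particles, stood at 1788, 3290, 1160 and 1502 CPM in high-share barcodes, against 210, 312, 205 and 295 CPM in low-share barcodes. Every high-share value exceeded every low-share value, and the log2 fold change was 2.83 ± 0.23 (SE, adjusted p = 5.48e-07). Ace, a peptidase of the brush border, stood at 299, 435, 231 and 207 CPM in high-share barcodes, against 38.2, 52.0, 37.0 and 37.0 CPM in low-share barcodes (log2 fold change 2.79 ± 0.17, adjusted p = 1.06e-07). Lct, the lactase that splits milk sugar, stood at 43.4, 22.3, 152 and 143 CPM in high-share barcodes, against 4.74, 2.11, 18.4 and 24.5 CPM in low-share barcodes. The Lct values of the groups overlap across libraries but were higher within each of the 4, with a log2 fold change of 2.95 ± 0.20 and an adjusted p of 1.75e-07. With equal weight for 3 classes Apoa4 and Lct remained called at log2 fold changes of 0.86 and 1.28, and 2 of the 14 enterocyte markers were called.

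Several transporters were among the other genes of largest rise. Slc5a12, a monocarboxylate transporter, had a log2 fold change of 2.96, Slc15a1, the peptide transporter, 2.69, and Slc6a19, a neutral amino acid transporter, 2.65. Mme (neprilysin), Plb1 (a phospholipase of the brush border), Cubn (cubilin, which takes up the cobalamin carrier) and Slc34a2 (a phosphate transporter) rose by 2.79, 2.72, 2.61 and 2.62 on the log2 scale. Cyp3a11, a cytochrome P450, and Slco2a1, a prostaglandin transporter, rose by 2.64 and 2.62. The genes are those of largest rise among called genes that averaged at least 50 CPM over the 8 sums and were higher in 4 of 4 libraries. The shared direction was thus a condition of choice, and 25.8% of all genes tested had it.

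Alpha-defensins of Paneth cells led the genes that were lower. All 9 Paneth markers fell, with a median log2 fold change of −3.15. Lyz1, the Paneth cell lysozyme, stood at 610, 69.2, 990 and 725 CPM in high-share barcodes, against 3499, 1148, 8343 and 10242 CPM in low-share barcodes. The groups do not overlap, and the log2 fold change was −3.32 ± 0.29 (adjusted p = 7.90e-07). Defa30 stood at 323, 13.4, 827 and 287 CPM in high-share barcodes, against 4521, 1504, 10014 and 10774 CPM in low-share barcodes (log2 fold change −4.55 ± 0.39). Beside Defa30, the genes of largest fall by the same rule of level included Defa21, Defa22, Defa32, Defa36, Defa23, Defa5, Defa29 and Defa20, whose log2 fold changes lay between −4.74 and −3.91. Since the copies are nearly identical, counts of a single member may be split or shared between them.

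Markers of the other epithelial lineages were lower as well. All 10 cycling markers fell (median −1.37), as did 6 of 7 stem markers tested (median −0.96) and 6 of 8 goblet markers (median −0.72). Olfm4, a stem cell marker, stood at 379, 49.1, 980 and 616 CPM in high-share barcodes, against 1241, 287, 1666 and 1281 CPM in low-share barcodes (log2 fold change −1.43 ± 0.24, adjusted p = 0.000299). Top2a, the topoisomerase of dividing cells, stood at 128, 40.2, 136 and 96.6 CPM in high-share barcodes, against 323, 188, 245 and 223 CPM in low-share barcodes (log2 fold change −1.32 ± 0.20). Both were lower in each library. Muc2, the main intestinal mucin, had a log2 fold change of −0.59 ± 0.19 (adjusted p = 0.0195), and with equal weight for 3 classes it was 0.94, in the other direction. With equal weight no cycling or stem marker was called, 4 goblet markers were higher and 2 Paneth markers lower. Without either syngeneic library Muc2 was not called, and without allogeneic library 1 Lgr5, whose log2 fold change was −0.93, was not.

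Markers of cells outside the epithelium were sparse. The 13 T or NK markers summed to 701, 524, 559 and 386 CPM in high-share barcodes, against 1617, 466, 49.9 and 244 CPM in low-share barcodes, and 1 of 12 tested was called, lower. The 9 stromal or endothelial markers were at 0 in high-share barcodes of all libraries but syngeneic 1 (3.31 CPM), and the 5 erythroid markers at 0 in all but syngeneic 1 (1.10 CPM). The 7 B or plasma markers summed to 11.8, 17.8, 21 and 4.20 CPM in high-share barcodes, against 5.43, 3.62, 4.70 and 4.39 CPM in low-share barcodes. Of the 2 tested, Igkc, the constant part of the kappa light chain, rose. It stood at 8.82, 13.4, 12.1 and 2.80 CPM in high-share barcodes, against 0.383, 0.674, 1.70 and 0.718 CPM in low-share barcodes (log2 fold change 3.42 ± 0.49, adjusted p = 5.85e-05), from 12, 6, 11 and 2 UMIs in the high-share barcodes. The 10 myeloid markers summed to 53.7, 4.46, 29.8 and 14.0 CPM in high-share barcodes, against 140, 24.3, 7.64 and 11.6 CPM in low-share barcodes. Of the 3 tested Lyz2, the lysozyme of myeloid cells, fell. Lyz2 stood at 29.4, 0, 0 and 2.80 CPM in high-share barcodes, against 77.1, 10.7, 0.588 and 0.558 CPM in low-share barcodes (−1.33 ± 0.40, adjusted p = 0.0157). It was not called by DESeq2 and was too low to be tested without allogeneic library 1. Within enterocyte-like barcodes the T or NK markers summed to 20.5, 23.5, 3.84 and 51.7 CPM in high-share barcodes and 13.6, 10.9, 27.2 and 9.18 CPM in low-share barcodes.

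**Figure D2:**
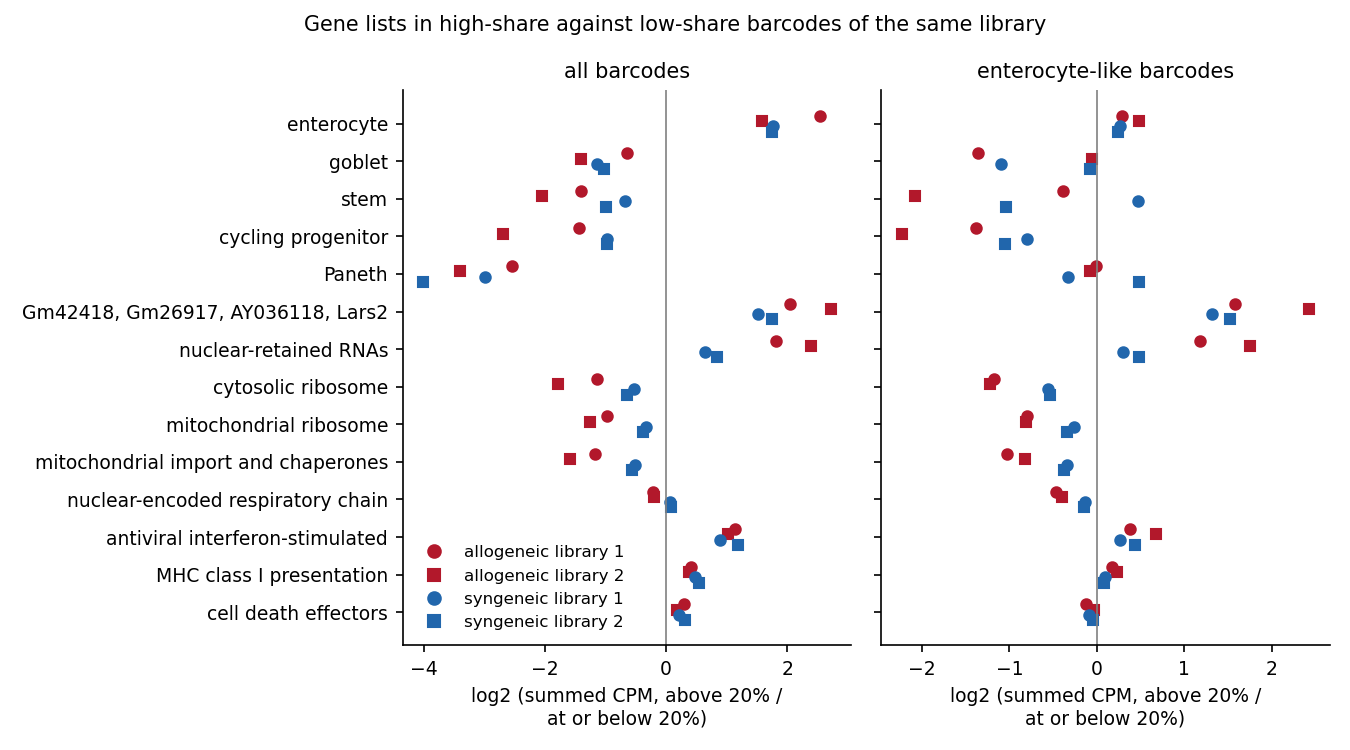
Log2 ratio of summed CPM in high-share over low-share barcodes (x axis) for 14 gene lists, per library, over all barcodes (left) and within enterocyte-like barcodes (right). Enterocyte genes and the list of Gm42418, Gm26917, AY036118 and Lars2 lie right of 0 in all 4 libraries in both panels, ribosomal lists lie left of 0 in both, and the Paneth list lies far left only over all barcodes.

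High-share and low-share barcodes were also compared within the enterocyte-like class, the one class with at least 20 high-share barcodes in every library (501, 265, 221 and 223). The class pools several clusters, whose mix differed between high-share and low-share barcodes. In allogeneic library 2 the cluster led by Upp1 held 1031 of 2453 low-share and 56 of 265 high-share barcodes. The comparison thus holds the class constant but not the mix of clusters in it. Of 7155 genes tested, 752 were higher (10.5%) and 910 lower (12.7%) in high-share barcodes, with a median log2 fold change of 0.02. Of the 752 higher genes 691 (91.9%) were also called higher over all barcodes, and of the 910 lower genes 608 (66.8%) were called lower there. Of 6 cycling markers tested in the class 4 were lower and none higher (median −1.46). Of 4 stem markers tested 2 were lower and none higher (median −0.39). Enterocyte markers, which also served to name the class, gave 9 higher and 1 lower of 14 (median 0.48). Alpi, the intestinal alkaline phosphatase, stood at 142, 259, 322 and 323 CPM in high-share barcodes, against 91.5, 105, 226 and 241 CPM in low-share barcodes (log2 fold change 0.64 ± 0.13, adjusted p = 0.00157). The lower one was Fabp6, the ileal bile acid binding protein, at −0.27 ± 0.08, which was not called without allogeneic library 1, allogeneic library 2 or syngeneic library 1. Median non-mitochondrial UMIs in the class were 1364, 1093, 2113 and 1720 per high-share barcode, against 3412, 3143, 3629 and 3218 per low-share barcode. With low-share barcodes drawn to match the UMIs of the high-share ones, 121 genes were called, and Alpi was not among them. Of the 14 enterocyte markers 1 was then higher and none lower (median 0.05). The draw kept 174, 342, 101 and 225 of the 437, 2453, 713 and 764 low-share barcodes. Their median non-mitochondrial UMIs were 1728, 1207.5, 2292 and 2001, still above those of the high-share ones. How much of the fall in calls came with the smaller reference was not tested. With clusters matched 799 were called, again without Alpi. Without allogeneic library 1 or 2 the counts were 651 and 878.

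Among genes that averaged at least 50 CPM, Gm42418 and Lars2 were the ones of largest rise within enterocyte-like barcodes, and all 4 genes of the list of Gm42418, Gm26917, AY036118 and Lars2 rose there (median 1.41). Gm42418 lies on chromosome 17 at 39846958 to 39848788 and Gm26917 at 39843013 to 39846341, both on the plus strand, and AY036118 at 39847113 to 39848035 on the minus strand, inside Gm42418 (GENCODE M21, GRCm38). All 3 are annotated as long noncoding RNAs. Lars2 lies on chromosome 9 at 123366927 to 123462666 and encodes the mitochondrial leucyl-tRNA synthetase. Whether the reads assigned to the 4 genes came from these transcripts or from ribosomal RNA was not tested. The use of strand in counting is not given in the sources used here, so AY036118 and Gm42418 may share reads.

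Gm42418 stood at 9452, 4654, 5838 and 7068 CPM in high-share enterocyte-like barcodes, against 3142, 842, 2330 and 2415 CPM in low-share ones. Every high-share value exceeded every low-share value, and the log2 fold change was 1.67 ± 0.14 (adjusted p = 1.14e-05). Lars2 stood at 179, 86.3, 111 and 99.1 CPM in high-share barcodes, against 62.6, 17.6, 36.4 and 47.4 CPM in low-share barcodes (log2 fold change 1.53 ± 0.17, adjusted p = 5.30e-06). Gm26917 had a log2 fold change of 1.30 ± 0.17 and AY036118 of 0.70 ± 0.20. With UMIs matched, Gm42418 and Lars2 had log2 fold changes of 1.04 and 1.02 (adjusted p = 1.16e-17 and 0.000133). AY036118 was not called under that match or without allogeneic library 1. Over all barcodes the 4 genes were also all higher, with a median log2 fold change of 1.49, and 3 of them remained called with equal weight for 3 classes. Without allogeneic library 2 Gm26917 was not called over all barcodes.

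The level of this list was higher at higher mitochondrial shares inside the class, over bins that the rule itself defines. In allogeneic library 1 the 4 genes summed to 1494 CPM at 5 to 10% mitochondrial share, 8102 CPM at 20 to 25% and 15239 CPM at 40 to 60%. In allogeneic library 2 they summed to 720, 4191 and 8781 CPM in the same bins, in syngeneic library 1 to 1898, 4379 and 13866 CPM, and in syngeneic library 2 to 1811, 6071 and 13101 CPM. The order of these 3 bins was the same in each library. Median non-mitochondrial UMIs per barcode were 4774, 1849 and 1113 in those bins of allogeneic library 1 and 3577, 1733 and 781 in syngeneic library 2, so depth moved with the share.

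**Figure D3:**
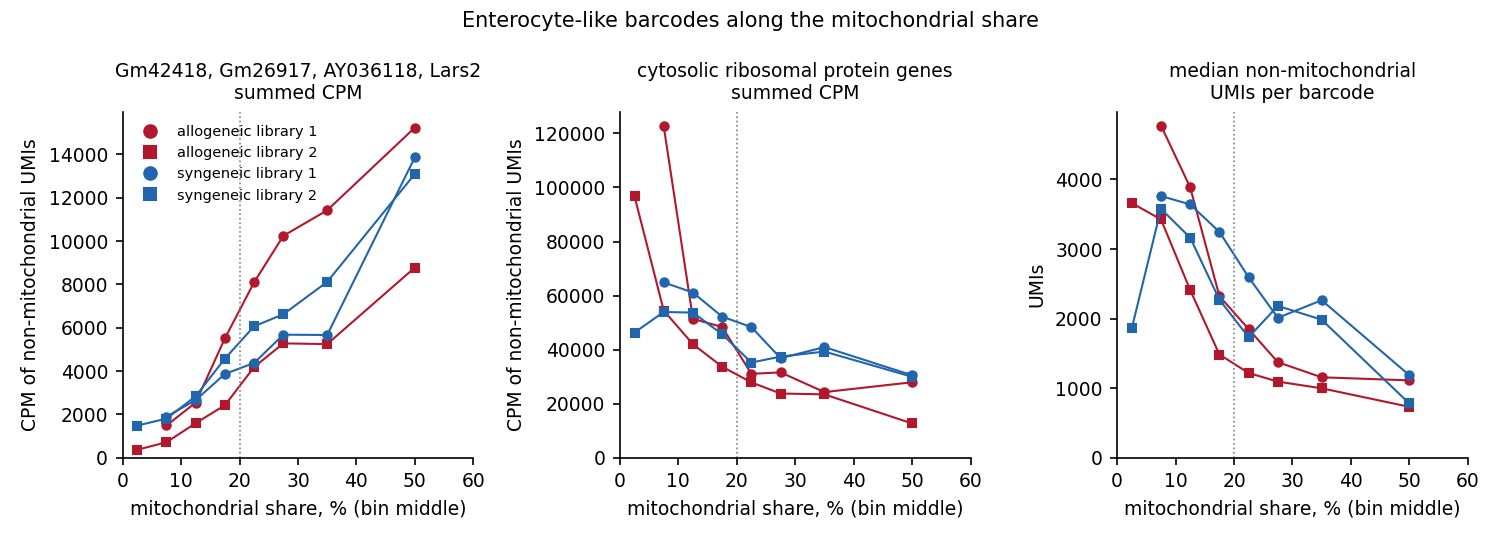
Summed CPM of Gm42418, Gm26917, AY036118 and Lars2 (left), summed CPM of cytosolic ribosomal protein genes (middle) and median non-mitochondrial UMIs (right) in enterocyte-like barcodes, by bin of mitochondrial share (x axis, percent, bin middle) and library, with bins under 20 barcodes left out and the limit of 20% dotted. The 4-gene sum ends between 8781 and 15239 CPM, while the ribosomal sum and the UMIs fall along the axis in most bins.

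Malat1 and Neat1, long noncoding RNAs that stay in the nucleus, were higher over all barcodes. Malat1 stood at 15293, 18521, 4585 and 6535 CPM in high-share barcodes, against 3454, 3222, 2609 and 3249 CPM in low-share barcodes. All high-share values lay above all low-share values, with the allogeneic libraries farthest above, and the log2 fold change was 1.62 ± 0.31 (adjusted p = 0.000651). Within enterocyte-like barcodes Malat1 stood at 20111, 19911, 5558 and 8468 CPM in high-share barcodes, against 8608, 5866, 4493 and 6038 CPM in low-share barcodes. There the log2 fold change was 0.89 ± 0.30 and did not pass the test (adjusted p = 0.123), and with UMIs matched it was 0.05. Neat1 passed both over all barcodes (0.95 ± 0.24, adjusted p = 0.00553) and within the class (0.71 ± 0.21, adjusted p = 0.0384), but in neither with UMIs matched, nor in the class without allogeneic library 1. All long noncoding RNAs together held 3.04, 2.74, 1.38 and 1.64% of the non-mitochondrial UMIs of high-share barcodes, against 1.13, 0.897, 0.851 and 0.891% in low-share barcodes. These sums include Gm42418, Gm26917 and AY036118. Without those loci the shares were 2.07, 2.25, 0.872 and 1.06% in high-share barcodes, against 0.901, 0.823, 0.673 and 0.720% in low-share barcodes, still higher in 4 of 4 libraries.

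Genes for cytosolic ribosomal proteins, the subunits of the machinery that translates nuclear-encoded RNA, were lower in high-share barcodes. Over all barcodes 78 of 79 tested fell and none rose (median log2 fold change −1.01), and within enterocyte-like barcodes 77 of 79 fell (median −0.94). In that class their summed level was 29170, 25412, 41997 and 36206 CPM in high-share barcodes, against 65666, 59108, 61894 and 52450 CPM in low-share barcodes. No high-share sum reached a low-share sum. With UMIs matched, 26 of the 79 were lower (median −0.33) and with clusters matched 65 were lower (median −0.56). With equal weight for 3 classes none of 79 was called (median −0.30).

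Many nuclear genes for the mitochondrion itself were lower in high-share barcodes. Of 74 mitochondrial ribosomal protein genes tested 63 fell over all barcodes (median −0.79), and 46 of 72 fell within enterocyte-like barcodes (median −0.67). Of 19 genes for mitochondrial import and chaperones 15 fell over all barcodes (median −0.82) and 13 of 18 within the class (median −0.80). At equal weight for 3 classes none of 73 mitochondrial ribosomal genes (median −0.30) and none of 17 import and chaperone genes (median −0.34) was called. Hspd1, the chaperonin of the mitochondrial matrix, stood at 25.1, 49.7, 53.7 and 53.8 CPM in high-share enterocyte-like barcodes, against 80.3, 158, 73.8 and 88.2 CPM in low-share ones. The groups did not overlap (log2 fold change −1.18 ± 0.20, adjusted p = 0.000280). Its partner Hspe1 was among the 3 genes of largest fall in the class by the same rule of level (−1.52 ± 0.20), with Ptma (prothymosin alpha, −1.56 ± 0.27) and 1810065E05Rik (−1.55 ± 0.22). Tfam, which packages mitochondrial DNA and starts its transcription, stood at 30.1, 8.92, 34.2 and 29.4 CPM over all high-share barcodes, against 74.2, 39.0, 60.5 and 58.0 CPM in low-share barcodes (log2 fold change −1.16 ± 0.20, adjusted p = 0.000400).

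Nuclear-encoded subunits of the respiratory chain, partners of the mitochondrially encoded ones, were seldom called over all barcodes and often lower within enterocyte-like ones. Over all barcodes 12 of 79 tested were lower and 1, Cox7a1, higher (median −0.14). Of all genes, 19.7% were lower and 20.7% higher, with a median of −0.09, so rises were scarcer in this list. The summed level of the list over all barcodes was lower in both allogeneic libraries, at log2 ratios of −0.22 and −0.19. It was higher in both syngeneic ones, at 0.07 and 0.09. Within enterocyte-like barcodes 51 of 77 were lower and none higher (median −0.39). In the class they summed to 32111, 51099, 41924 and 39251 CPM in high-share barcodes, against 44239, 67492, 46146 and 43409 CPM in low-share barcodes. The sums were lower in 4 of 4 libraries, with the smaller gaps in the syngeneic ones. With UMIs matched 1 respiratory chain gene and no mitochondrial ribosomal gene of 54 tested was called, and Hspd1 and Hspe1 were not called. With clusters matched the counts were 39 and 18.

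Transcript length moved with these calls. Among protein-coding genes tested within enterocyte-like barcodes, ribosomal protein genes left out, the median log2 fold change was −0.15, −0.11, 0.03 and 0.27 in 4 groups of about equal size, from the shortest to the longest annotated transcripts. Over all barcodes the same medians were −0.21, −0.18, −0.06 and 0.17. Ribosomal protein transcripts are short, and the part of length in their level was not tested.

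Stress and death genes had no common direction. Over all barcodes 11 of 27 cell death genes rose and 1 fell (median 0.14), but within enterocyte-like barcodes 2 rose and 4 fell (median 0.02), and with equal weight for 3 classes none of 20 was called. Casp8, the initiator caspase of death receptors, stood at 143, 219, 174 and 213 CPM in all high-share barcodes, against 79.2, 124, 89.8 and 98.9 CPM in low-share barcodes (log2 fold change 0.93 ± 0.15, adjusted p = 0.000191). With equal weight for 3 classes Casp8 was not called. The 12 p53 targets tested gave 3 higher and 2 lower over all barcodes and none of 7 called within the class. Cdkn1a, the cell cycle inhibitor p21, stood at 365, 482, 221 and 217 CPM in all high-share barcodes, against 107, 254, 94.9 and 104 CPM in low-share barcodes (1.25 ± 0.18), and at −0.11 with equal weight. Heat shock genes gave 3 lower and none higher of 9 over all barcodes, and 3 lower of 8 within the class.

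Interferon-induced genes were unevenly placed. Of 19 antiviral genes tested 12 rose and 2 fell over all barcodes (median 1.02), and within enterocyte-like barcodes 4 rose and 1 fell of 14 (median 0.36). Under equal weight for 3 classes none of 8 was called (median 0.17), and within the class with UMIs matched none rose and 1 fell of 12 (median −0.07). Oasl2, a member of the oligoadenylate synthetase-like family, stood at 264, 199, 23 and 45.2 CPM in high-share enterocyte-like barcodes, against 148, 77.7, 22.8 and 25.7 CPM in low-share ones (log2 fold change 0.84 ± 0.16, adjusted p = 0.000914). Ubd, a ubiquitin-like protein, stood at 967, 2409, 192 and 162 CPM in high-share enterocyte-like barcodes, against 518, 978, 109 and 135 CPM in low-share ones (0.81 ± 0.13). Both were higher within each library, and neither was called with UMIs matched. Of 17 genes of MHC class I presentation 6 rose over all barcodes and none was called with equal weight, while within the class 2 rose and 4 fell. The 4 that fell, Psmb8, Psmb9, Psme1 and Psme2, encode subunits or activators of the immunoproteasome. Psmb8 stood at 331, 528, 411 and 437 CPM in high-share enterocyte-like barcodes, against 549, 714, 490 and 426 CPM in low-share ones. It was lower in 3 of 4 libraries (−0.41 ± 0.12, adjusted p = 0.0203) and was not called without either allogeneic library.

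Within enterocyte-like barcodes Ly6a and the antimicrobial lectins Reg3b and Reg3g were lower. Ly6a, the surface protein Sca-1, stood at 244, 756, 11.5 and 17.2 CPM in high-share enterocyte-like barcodes, against 579, 1530, 53.4 and 74.2 CPM in low-share ones (log2 fold change −1.39 ± 0.16, adjusted p = 5.67e-06; not called with UMIs matched). Reg3b, a secreted lectin that binds bacteria, stood at 23662, 22472, 50122 and 41510 CPM in high-share enterocyte-like barcodes, against 36267, 37279, 68568 and 64548 CPM in low-share ones. It was lower in each library by a similar step (−0.67 ± 0.08, adjusted p = 6.22e-06) and at −0.34 with UMIs matched (adjusted p = 0.00222). The related lectin Reg3g had a log2 fold change of −0.47 ± 0.08. Over all barcodes the direction was the opposite one. There the 6 Reg lectins summed to 23328, 27649, 45725 and 43960 CPM in high-share barcodes, against 10675, 22950, 30242 and 33645 CPM in low-share barcodes, higher in 4 of 4 libraries. Over all barcodes Reg3b and Reg3g had log2 fold changes of 0.62 ± 0.27 and 0.56 ± 0.24 that did not pass the test (adjusted p = 0.0752 and 0.0725), Reg3a rose (1.04 ± 0.19) and Reg4 fell (−1.60 ± 0.19). With UMIs matched over all barcodes 3 of the 4 tested rose, and with equal weight for 3 classes none was called and all 4 had the other sign. Without allogeneic library 2 Reg3b and Reg3g were called higher over all barcodes.

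The mitochondrial RNAs themselves differed little in composition between high-share and low-share barcodes. Shares of the 13 genes among mitochondrial UMIs moved by 2.22 percentage points or less on average in either group. Cytochrome b (mt-Cytb) was 13.2, 16.8, 11.6 and 11.4% of mitochondrial UMIs in high-share barcodes, against 13.6, 18.4, 14.0 and 13.3% in low-share barcodes. It was lower in 4 of 4 libraries, by 1.62 ± 0.855 points, and remained so within enterocyte-like barcodes. Cytochrome c oxidase subunit 2 (mt-Co2) was 16.0, 17.3, 16.9 and 16.8% in high-share barcodes, against 15.9, 16.0, 15.8 and 15.7% in low-share barcodes, higher in 4 of 4 libraries. For 6 of 13 genes all 4 libraries had 1 direction, each with an exact two-sided sign-flip p of 0.13, the smallest possible, and 0.271 after Benjamini-Hochberg adjustment over 13 genes.

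The 2 transplant groups differed in mt-Co1. Its share was 9.29 and 11% in high-share barcodes of the allogeneic libraries, against 11.3 and 12.3% in their low-share barcodes. In the syngeneic libraries it was 14.0 and 15.2% in high-share barcodes, against 12.6 and 13.2% in low-share barcodes. Both allogeneic libraries were lower and both syngeneic ones higher, with mean differences of −1.61 and 1.68 points. Within enterocyte-like barcodes the directions were the same, at −1.19 and 0.142 points. The difference between the groups was not tested.

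**Figure D4:**
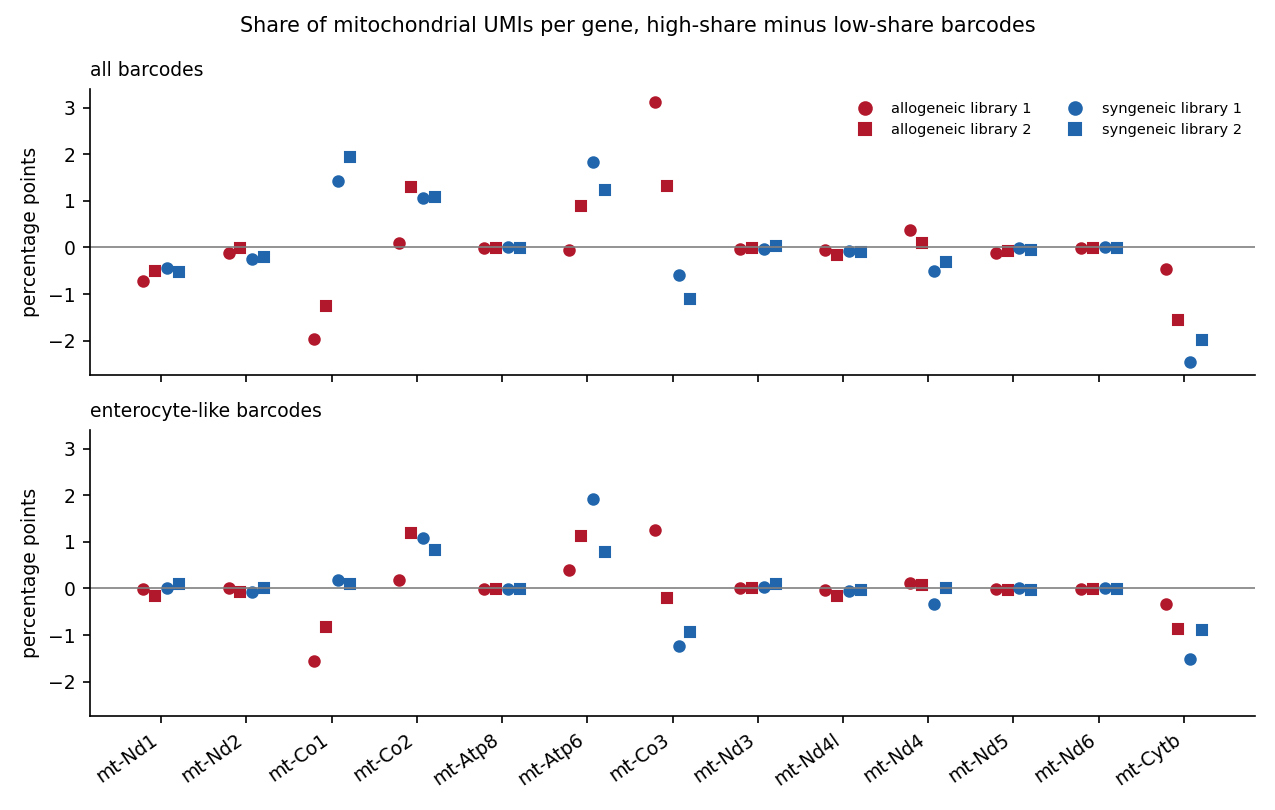
Share of each of the 13 mitochondrial genes among mitochondrial UMIs, high-share minus low-share barcodes (y axis, percentage points), per library, over all barcodes (top) and enterocyte-like barcodes (bottom). For mt-Co1 both allogeneic libraries lie below 0 and both syngeneic libraries above it, while mt-Cytb lies below 0 in all 4.

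Among high-share barcodes alone, allogeneic libraries carried more interferon-induced RNA than syngeneic ones. Of 7363 genes tested with edgeR's quasi-likelihood test, 147 were higher (2.0%) and 43 lower (0.584%) in allogeneic high-share barcodes, with a median log2 fold change of 0.01. Of 8 interferon-gamma induced GTPases tested 4 rose and none fell (median 2.15), and of 13 other interferon-gamma effectors 6 rose (median 1.60). Of 13 antiviral genes 8 rose (median 2.22), and of 17 genes of MHC class I presentation 5 (median 1.28). The filter on low counts left 8 of 16 GTPases and 7 of 20 antiviral genes untested. A gene could pass it on its level in 1 group alone, so the counts and medians of these 2 lists favour genes that were high in a group. Because 2 libraries form each group, p-values measure the spread between pooled libraries. The enterocyte clusters that supplied most barcodes were different ones in the 2 groups, as given above.

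Ubd stood at 706 and 2258 CPM in allogeneic high-share barcodes, against 117 and 105 CPM in syngeneic high-share barcodes (log2 fold change 3.97 ± 0.65, adjusted p = 0.0162). The low-share barcodes of the same libraries had 260 and 699 CPM in allogeneic and 23.5 and 30.9 CPM in syngeneic libraries. H2-Q7, a nonclassical MHC class I chain, stood at 201 and 138 CPM in allogeneic high-share barcodes, against 26.5 and 14.0 CPM in syngeneic ones (3.16 ± 0.34, adjusted p = 0.00397). Its close relatives H2-Q6 and H2-Q4 had log2 fold changes of 4.04 and 1.78, and counts may be shared between these near-identical genes. Ly6a stood at 324 and 901 CPM in allogeneic high-share barcodes, against 25.4 and 23.8 CPM in syngeneic ones (4.85 ± 0.63, adjusted p = 0.00734). In none of these did the groups overlap. That held for all 190 genes called and for 49.2% of the 7363 tested, and it was a condition for naming most genes here. B2m, the common light chain of MHC class I, stood at 4153 and 4638 CPM in allogeneic high-share barcodes, against 1399 and 1320 CPM in syngeneic ones, without passing the test (1.85 ± 0.46, adjusted p = 0.0661). With equal weight for 3 classes Ubd was not called (adjusted p = 0.0941) and B2m was.

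Several induced genes were nearly absent from syngeneic high-share barcodes. Ido1, which degrades tryptophan, had 475 UMIs over both allogeneic libraries and 3 over both syngeneic ones, a ratio per UMI of 142 (exact 95% counting interval 48.3 to 691). Cxcl9, a chemokine that draws T cells, had 105 UMIs in allogeneic and 2 in syngeneic high-share barcodes, a ratio of 47.1 (12.7 to 394). Gbp4, a guanylate-binding GTPase, had 57 UMIs in allogeneic and 1 in syngeneic high-share barcodes, a ratio of 51.1 (8.81 to 2053). These intervals cover counting error only. With so few syngeneic UMIs, the 3 genes could pass the filter on low counts only on their allogeneic level. All 3 were called in the fit, with Ido1 at adjusted p = 0.0464, Cxcl9 at 0.00734 and Gbp4 at 0.0397, and Ido1 and Gbp4 were lost with an upper limit of 40% mitochondrial share.

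Angptl4, Pck1 and Fkbp5 were also among the genes of largest rise in allogeneic high-share barcodes. Angptl4, a fasting-induced inhibitor of lipoprotein lipase, stood at 177 and 259 CPM in allogeneic high-share barcodes, against 15.4 and 12.6 CPM in syngeneic ones (log2 fold change 4.08 ± 0.42, adjusted p = 0.00397). Pck1, an enzyme of gluconeogenesis, stood at 383 and 475 CPM in allogeneic high-share barcodes, against 58.5 and 25.2 CPM in syngeneic ones (3.49 ± 0.45, adjusted p = 0.00734). Fkbp5, a glucocorticoid-induced co-chaperone, stood at 315 and 147 CPM in allogeneic high-share barcodes, against 24.3 and 5.6 CPM in syngeneic ones (3.98 ± 0.50, adjusted p = 0.00734). In low-share barcodes Pck1 stood at 47.1 and 122 CPM in allogeneic and 9.41 and 9.33 CPM in syngeneic libraries. Angptl4 belongs to a list of 18 genes of fatty acid oxidation and ketone synthesis, of which 2 of 14 tested rose and 1 fell (median 0.30).

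The genes lower in allogeneic high-share barcodes included Plb1, Lct and Agr2. Plb1 stood at 145 and 37.9 CPM in allogeneic high-share barcodes, against 468 and 605 CPM in syngeneic ones (log2 fold change −2.43 ± 0.47, adjusted p = 0.0311). Lct stood at 43.4 and 22.3 CPM in allogeneic high-share barcodes, against 152 and 143 CPM in syngeneic ones (−1.99 ± 0.30, adjusted p = 0.0122). Agr2, which folds mucin in goblet cells, stood at 451 and 210 CPM in allogeneic high-share barcodes, against 1806 and 1853 CPM in syngeneic ones (−2.38 ± 0.43, adjusted p = 0.0244). Cyp2d26, Fam151a, Rnf186, Kcne3, Reg4 and Reg3a had log2 fold changes of −2.58, −2.37, −2.51, −2.13, −2.09 and −2.76. None of these 9 overlapped between the groups, which held for all 190 genes called and for 49.2% of the 7363 tested. With equal weight for 3 classes Lct, Cyp2d26, Fam151a, Rnf186 and Reg4 were not called, without either syngeneic library Agr2 was not called, and without syngeneic library 1 neither Kcne3 nor Reg4 was. The totals of calls fell to 72 without syngeneic library 1 and 99 without syngeneic library 2, and were 1607 without allogeneic library 1 and 1299 without allogeneic library 2.

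**Figure D5:**
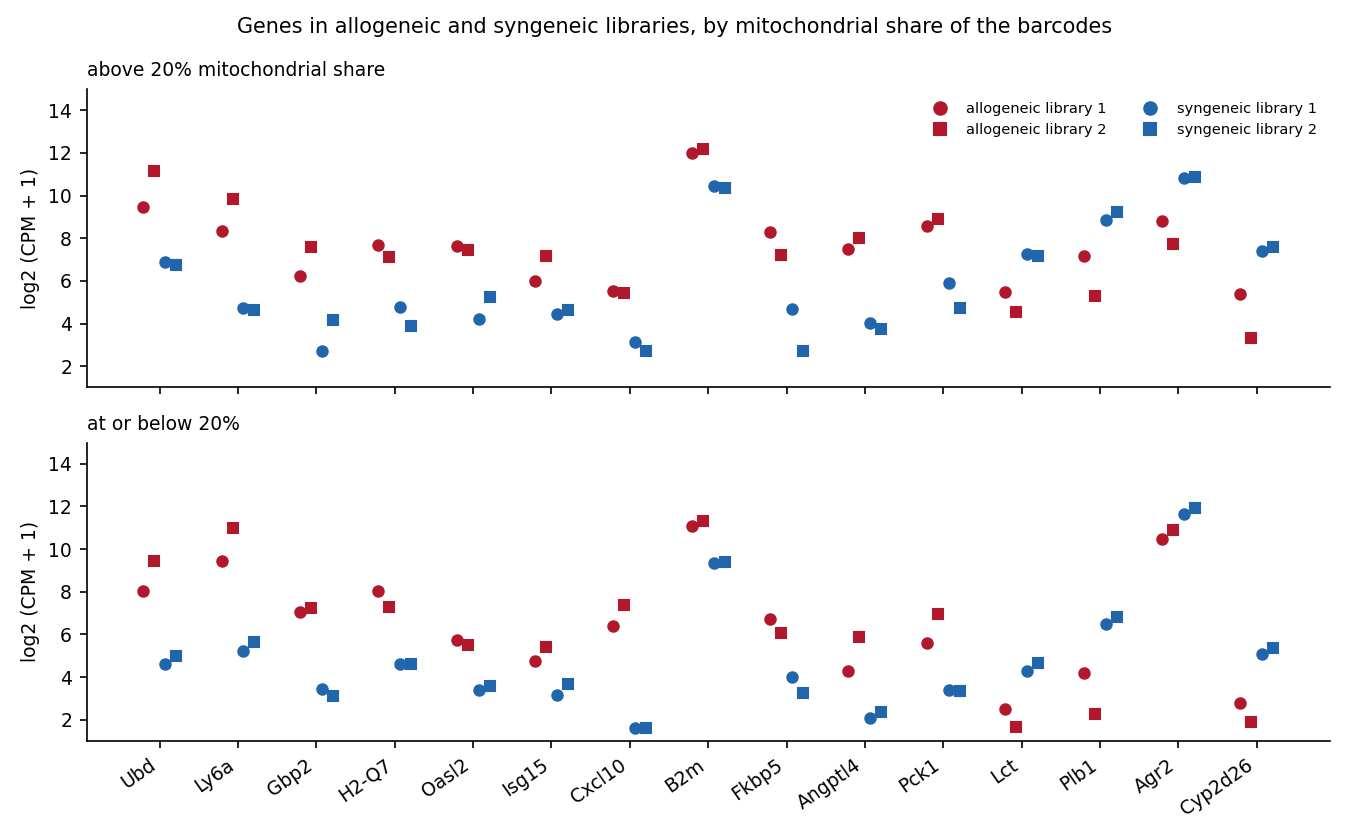
Levels of 15 genes per library as log2 (CPM + 1) in high-share barcodes (top) and low-share barcodes (bottom), allogeneic libraries in red and syngeneic ones in blue. In the high-share panel Ubd lies at 706 and 2258 CPM in allogeneic libraries, against 117 and 105 CPM in syngeneic ones, and the 2 groups keep their order in the low-share panel for all 15 genes. All but B2m were called in the high-share comparison of the same libraries. In low-share barcodes 36.4% of the 12290 genes tested had groups that did not overlap, in either order.

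Whether the allogeneic difference itself was other in high-share than in low-share barcodes was tested as an interaction. Of 12035 genes tested, 27 had a larger difference in high-share barcodes (0.224%) and 24 a smaller one (0.199%), with a median of −0.07. Calls numbered 5 without syngeneic library 1 and 26 without syngeneic library 2, and 1119 and 966 without allogeneic library 1 and 2. None of the 14 interferon-gamma GTPases, 20 antiviral genes or 17 genes of MHC class I presentation tested was called, with medians of −0.46, 0.32 and −0.22. A p that misses the threshold does not show that the differences were equal. In high-share barcodes the 20 antiviral genes summed to 1175 and 1171 CPM in allogeneic libraries, against 304 and 428 CPM in syngeneic libraries. In low-share barcodes the same genes summed to 535 and 576 CPM in allogeneic libraries, against 163 and 188 CPM in syngeneic libraries.

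Cxcl10, a chemokine that draws T cells, was the 1 interferon-gamma effector of 13 called. It stood at 45.6 and 42.4 CPM in allogeneic high-share barcodes, against 7.72 and 5.6 CPM in syngeneic ones. In low-share barcodes it stood at 82.8 and 168 CPM in allogeneic libraries, against 2.09 and 2.07 CPM in syngeneic ones, so that the difference was smaller by 2.93 ± 0.66 on the log2 scale in high-share barcodes (adjusted p = 0.0273). The syngeneic high-share values rest on few UMIs, from sums of 906428 and 714605. Cxcl10 was among the leading genes of a cluster without a name. Barcodes without a name were 8.63 and 7.30% of allogeneic high-share barcodes, against 19.9 and 20.4% of allogeneic low-share ones. The values do not separate that mix from levels within a class. Jun, an immediate-early transcription factor, stood at 335 and 290 CPM in allogeneic high-share barcodes, against 78.3 and 99.4 CPM in syngeneic ones. In low-share barcodes Jun stood at 293 and 198 CPM in allogeneic libraries, against 162 and 153 CPM in syngeneic ones (interaction 1.24 ± 0.27, adjusted p = 0.0232). Without either syngeneic library neither gene passed.

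Gm26917 and AY036118 were called as well, with interactions of 1.41 ± 0.28 and 1.41 ± 0.31. Gm26917 stood at 941 and 172 CPM in allogeneic high-share barcodes, against 80.5 and 92.4 CPM in syngeneic ones, and at 218 and 56.2 CPM in allogeneic low-share barcodes, against 59.9 and 59.0 CPM in syngeneic ones. Allogeneic library 1 was the highest by far, and without either syngeneic library Gm26917 did not pass. With equal weight for 3 classes AY036118 was at −0.34 and not called. Malat1 and Neat1 had interactions of 1.47 ± 0.39 (adjusted p = 0.0863) and 1.15 ± 0.30 (adjusted p = 0.0837) that did not pass, and both passed by DESeq2. Among the genes whose allogeneic difference was lower in high-share barcodes were Npm3, Nme1, Lsm2, Lsm5, Ddx39 and Alyref, which act in ribosome building, nucleotide supply or RNA processing, with interactions between −1.64 and −1.31. Tomm5, a subunit of the mitochondrial import pore, had an interaction of −1.33 ± 0.29.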

How the data were processed

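Deposited values were raw UMI counts per gene and barcode from 10x Chromium 3′ libraries of 2 allogeneic and 2 syngeneic pools. The authors made these counts with Cell Ranger 2.1.1 on mm10, per the submitters' processing notes, while the matrix headers name version 3.1.0. The deposited matrices hold barcodes with 500 UMIs or more, so earlier filters bear on how many low-count barcodes are seen. Groups were taken from the labels.

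Mitochondrial genes were left out of all totals. Barcodes were clustered with scanpy 1.11.5 (1942 variable genes, 30 components, 15 neighbours, Leiden resolution 1), and clusters were named from marker lists with at least 3 markers. Counts were summed per library and part and fitted with edgeR 4.0.16's quasi-likelihood test (TMM, filterByExpr, library as a block within libraries) in R 4.3.3, with Benjamini-Hochberg adjustment at 0.05, and were tested on simulated data first. SE is the log2 fold change divided by the root of F. Between allogeneic and syngeneic high-share sums, p-values measure the spread between pools. In the fits with library as a block they measure the spread, across libraries, of the high-share minus low-share difference. Members and lists were chosen with earlier results of these data known. Named genes were the 12 of largest change per direction (3 within the class) that passed the threshold, averaged at least 50 CPM and had 1 direction in all libraries or groups that did not overlap, and members of the lists. Of 31053 gene IDs 31011 matched GENCODE M21. Doublet calls (Scrublet) were kept in.

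Alternatives were DESeq2 1.42.0, no filter on low counts, each library left out, limits of 30% and 40%, low-share barcodes at or below 10%, 2000 UMIs, thinning to 400 UMIs, doublet calls removed and equal weight for the enterocyte-like, goblet-like and stem-like classes. A few more were added after seeing the data: barcodes shared between libraries left out, low-share barcodes drawn to match UMIs, and low-share sums drawn to match clusters. Over all barcodes the match on UMIs kept 325, 437, 293 and 409 low-share barcodes. What these smaller sums took from the calls was not tested. Some items are not reported here.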

Additional observations from a re-analysis of the deposited data

Results flagged for a closer look

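The results here are ones in which the allogeneic and syngeneic groups differed in how high-share barcodes stood against low-share ones. With 2 libraries per group, single libraries were not tested as outliers.

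The interaction, the allogeneic difference in high-share minus that in low-share barcodes on the log2 scale, passed edgeR's quasi-likelihood test with Benjamini-Hochberg adjustment for the genes below. It was 2.58 for Pnliprp2, a pancreatic lipase relative, 2.29 for Pla2g4c, a phospholipase, 2.01 for Ndrg1, 1.71 for 2010109I03Rik, 1.57 for Gclc, an enzyme of glutathione synthesis, 1.49 for Fam102a, 1.47 for Cdc37l1, 1.45 for Qsox1, 1.45 for Ada, adenosine deaminase, and 1.42 for Por, the reductase that serves cytochrome P450 enzymes. Por stood at 219 and 149 CPM in allogeneic high-share barcodes, against 49.6 and 46.2 CPM in syngeneic ones. In low-share barcodes it stood at 44.7 and 41.8 CPM in allogeneic libraries, against 28.9 and 28.8 CPM in syngeneic ones. It was 1.41 for Gm26917, 1.41 for AY036118 and 1.24 for Jun.

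On the other side the interaction was −2.93 for Cxcl10, −1.78 for Fbln1, a matrix protein, −1.64 for Npm3, −1.63 for Lsm5, −1.59 for Cks1b, −1.46 for Lsm2, −1.45 for Ddx39, −1.42 for Tagln2, −1.40 for Abracl, −1.36 for Cks2, −1.33 for Tomm5, −1.33 for Nme1 and −1.31 for Alyref. Cks1b and Cks2 bind cyclin-dependent kinases. Of the 29 genes named from this test, 24 lost the call when syngeneic library 1 was left out and 25 when syngeneic library 2 was left out.

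Among mitochondrial RNAs, 3 moved one way in both allogeneic and the other way in both syngeneic libraries, and the difference between the groups was not tested. The share of mt-Co1 among mitochondrial UMIs differed between high-share and low-share barcodes by −1.61 percentage points in allogeneic and 1.68 points in syngeneic libraries. For mt-Co3 the difference was 2.22 points in allogeneic and −0.843 points in syngeneic libraries, and for mt-Nd4 0.237 and −0.408 points. Within enterocyte-like barcodes the libraries of each group still had opposite signs for mt-Co1, and no longer for mt-Co3 and mt-Nd4.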

How the results depend on the processing

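Counts of called genes moved as follows. Between high-share and low-share barcodes, 4530 genes were called, against 2326 with barcodes thinned to 400 UMIs, 80 with equal weight for 3 classes (77.5% higher, against 51.3%), 2622 with low-share barcodes matched on UMIs, and 2972 (without allogeneic library 1) to 4332 with 1 library left out. Within the enterocyte-like class, 1662 were called, against 878 by DESeq2, 799 with clusters matched, 121 with UMIs matched (30.6% higher, against 45.2%), and 651 to 1455 with 1 library left out. Between allogeneic and syngeneic high-share barcodes, 190 were called, against 20 with thinning, 102 with equal weight, 38 at a limit of 30%, 59 at 2000 UMIs, 511 without the filter, and 72 to 1607 with 1 library left out. In the interaction, 51 were called (52.9% higher), against 88 by DESeq2 (36.4%), 1 with thinning, 12 with equal weight (41.7%), 17 at 2000 UMIs (70.6%), 159 without the filter (29.6%), 179 at an upper limit of 40% (38.5%), and 5 to 1119 with 1 library left out. Where a group was left with 1 library, it was assumed to vary like the others. The share of high-share barcodes differed by −5.10 (without allogeneic library 1) to 13.98 points. Without the filter the median log2 fold change between high-share and low-share barcodes was −0.41. With equal weight, Cdkn1a (−0.11), Lgr5 (0.31), Mki67 (0.10), Muc2 (0.94), Reg3a (−0.28), Reg3b (−0.53), Reg3g (−0.41), Reg4 (0.47) and Tap1 (−0.0029) turned direction between high-share and low-share barcodes, as did AY036118 (−0.34) and Gclc (−0.34) in the interaction. Within the class Fabp2 turned to −0.13 with clusters matched and −0.033 with UMIs matched. Of 2065 values of named genes under alternatives, 1681 kept direction and call, 330 lost the call, 41 gained it and 13 turned. The cause was not tested. Differences in enterocyte marker detection and the count of mitochondrial genes with 1 direction kept their side under the alternatives run. No paired analysis was possible because the labels do not pair allogeneic with syngeneic libraries. High-share sums held as few as 448256 UMIs, which limits rare genes, and pools of mice limit n to 2 per group.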

Other observations

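Genes of fuel use and secretion gave further counts in high-share barcodes. Of 16 genes of fatty acid oxidation and ketone synthesis tested, 8 rose and 2 fell against low-share barcodes (median log2 fold change 0.46), and within the enterocyte-like class 3 of 13 rose and 1 fell (median −0.04). Of 12 glycolysis genes 1 fell over all barcodes, and 5 of 11 fell within the class (median −0.12). Of 17 genes of the integrated stress response 3 rose and 6 fell over all barcodes (median −0.22), and 2 of 6 fell within the class. Of 12 genes of the unfolded protein response 2 rose and 5 fell over all barcodes, and 1 rose and 3 fell of 12 within the class. The shares of all genes called are those given above for each comparison.

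The 89 high-share barcodes in clusters without a name were 8.63, 7.30, 1.39 and 0.323% of the high-share barcodes of allogeneic libraries 1 and 2 and syngeneic libraries 1 and 2, against 19.9, 20.4, 3.15 and 2.28% of low-share barcodes. The larger of these clusters held 60, 15, 5 and 1 high-share barcodes, and among its genes of largest fold were haemoglobin genes, Cxcl10 and Cxcl9. Erythroid markers had 0 UMIs in both allogeneic libraries, in high-share and low-share barcodes alike. They had 1 UMI in high-share and 4151 UMIs in low-share barcodes of syngeneic library 1.

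Of 16 genes linked to regeneration of the crypt, 9 did not pass the filter on low counts. Among the 7 tested, Ly6a, Ly6c1 and Areg rose in allogeneic over syngeneic high-share barcodes. Ly6c1 had 51 UMIs in allogeneic and 0 in syngeneic high-share barcodes, a ratio per UMI of 15.2 against a floor of 3 counts over the group, with an exact lower 95% counting limit of 11.9. Of the immediate-early genes, Jun, Egr1 and Zfp36 rose and none of 13 tested fell.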
